A study of Homo sapiens with 15 samples.

Results

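The genes described here are 10 plasma membrane amino acid transporter genes: SLC7A1, SLC7A5, SLC7A6, SLC7A11, SLC3A2, SLC1A4, SLC1A5, SLC38A1, SLC38A2 and SLC38A5. They were taken by gene symbol, and all 10 were found once in each of the 2 deposited expression tables, among 19604 genes. RNA sequencing was run on OCI-AML5, an established acute myeloid leukaemia cell line, in 15 libraries that formed 5 groups of 3. In the drug experiment the groups were untreated control cells, cells exposed for 4 h to 1000 nM OTX015, and cells exposed for 4 h to 1000 nM ARV-825. In the shRNA experiment the groups were cells transduced for 72 h with a non-targeting shRNA (shNT) or with a RUNX1 shRNA. The medium was Alpha MEM, supplemented with 20% serum and with the cytokine GM-CSF at 10 ng/mL, and no vehicle is named for the control. OTX015 is a small molecule that occupies the bromodomains of BET proteins, the readers of acetylated histones that help genes such as MYC to be transcribed. ARV-825 carries an OTX015-type BET ligand on a linker that ends in a ligand for cereblon, so that BET proteins are marked for degradation. RUNX1 is a transcription factor of blood cells, and the study concerns leukaemia cells with mutant RUNX1. All groups come from this 1 cell line, and the labels give neither the shRNA sequences nor their number.

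Amino acids cross the cell membrane through carriers that differ in which side chains they accept and in what they exchange or co-transport. The SLC7 proteins SLC7A5 (LAT1, large neutral amino acids such as leucine), SLC7A6 (y+LAT2, arginine in exchange for glutamine and other neutral amino acids) and SLC7A11 (xCT, cystine in exchange for glutamate) are light chains that need the glycoprotein SLC3A2 (4F2hc, CD98) to reach the surface. SLC7A1 (CAT1) imports arginine and lysine without a heavy chain. SLC1A5 (ASCT2) and SLC1A4 (ASCT1) are sodium-dependent exchangers of glutamine, serine, alanine and other small neutral amino acids. SLC38A1 (SNAT1), SLC38A2 (SNAT2) and SLC38A5 (SNAT5) move glutamine and other small neutral amino acids with sodium. Several of these genes are known targets of MYC or of ATF4, the transcription factor of the amino acid starvation response, and SLC7A11 is also a known target of the oxidative stress factor NRF2.

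Values are FPKM, a fragment count divided by transcript length and by library size, so that levels of different genes can be compared. The tables state no unit, the 2 experiments were normalized separately by the authors, and depth per library is unknown. The FPKM of a library summed to 554570 to 656995, and between 10496 and 10927 genes were at 1 FPKM or more. RUNX1 stood at 70.6 ± 1.40 FPKM with shNT and 38.7 ± 3.65 FPKM with RUNX1 shRNA (mean ± SD, n = 3 libraries per group, as for all means here). Its log2 change was -0.85 (adjusted p = 3.71e-05). The sample titles of that group name Runx3, and RUNX3 stood at 27.0 ± 1.80 and 28.4 ± 0.771 FPKM (adjusted p = 0.341). Of 8 myeloid markers, 7 or 8 per group reached 1 FPKM. They summed to between 929 and 995 FPKM in the control libraries, between 579 and 592 in those given OTX015 and between 665 and 696 in those given ARV-825. In the shRNA experiment the sum was between 883 and 913 FPKM for shNT and between 769 and 789 for RUNX1 shRNA. The sum was thus lower in each treated group, as were most of the transporters in both drug groups. LYZ was the largest part of it, at 568 FPKM in control, 411 with OTX015 and 499 with ARV-825. LYZ stood at 542 FPKM with shNT and 366 with RUNX1 shRNA, a larger fall than that of the sum. The other myeloid markers together thus did not fall with RUNX1 shRNA. The summed level of 6 erythroid markers was 2.63 to 4.73 FPKM. The 5 megakaryocyte markers summed to 2.25 to 2.90 FPKM in control and 5.04 to 6.48 with ARV-825. The 5 T and NK cell markers, led by NKG7 in the drug libraries, summed to 46.9 to 49.0 and 67.2 to 71.5 FPKM in the same groups. With OTX015 these 2 sums were 2.23 to 2.88 and 47.6 to 48.1 FPKM. The megakaryocyte sum was also higher with RUNX1 shRNA, at 3.04 to 4.89 FPKM against 2.44 to 2.90 with shNT. There the T and NK cell sum was lower, at 14.9 to 15.3 against 19.4 to 21.1 FPKM. The defining platelet genes PF4 and GP9 were at 0 in every group, and CD3E was at 0 with ARV-825. The part of these markers in the results was not tested. In bulk RNA, fewer cells of a type and less RNA per cell cannot be told apart.

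RefSeq promoter entries (GRCh38.p14) matched 9 of the 10 genes, with 15 annotated starts, and none was matched for SLC7A11. The 250 bases before the start are shown, 5′ to 3′ on the gene's strand, for 3 genes that have a single annotated start there and that behaved differently with the drugs. On the log2 scale of the tests, SLC7A5 fell most of the 9 tested members with OTX015 and SLC7A1 with ARV-825, and SLC38A5 fell with OTX015 but was not called with ARV-825. SLC38A2 and SLC7A6 also have a single annotated start and are not shown, and the SLC38A2 window held no match to any motif searched for. Capitals mark a motif match, which is the E-box CACGTG bound by MYC in SLC7A5 and SLC38A5 and the antioxidant response element TGACNNNGC bound by NRF2 in SLC7A1.
SLC7A5, chr16:87869508-87869757, minus strand: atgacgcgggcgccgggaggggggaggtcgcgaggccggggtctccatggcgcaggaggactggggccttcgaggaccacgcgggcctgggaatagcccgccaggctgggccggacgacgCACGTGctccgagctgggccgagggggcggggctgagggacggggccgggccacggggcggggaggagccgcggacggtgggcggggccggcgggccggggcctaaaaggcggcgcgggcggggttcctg
SLC7A1, chr13:29595689-29595938, minus strand: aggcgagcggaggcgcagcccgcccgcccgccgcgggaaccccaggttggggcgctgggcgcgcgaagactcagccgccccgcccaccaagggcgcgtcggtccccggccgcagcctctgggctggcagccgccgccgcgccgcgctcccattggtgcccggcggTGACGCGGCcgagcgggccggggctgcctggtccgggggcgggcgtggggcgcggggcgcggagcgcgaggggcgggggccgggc
SLC38A5, chrX:48470261-48470510, minus strand: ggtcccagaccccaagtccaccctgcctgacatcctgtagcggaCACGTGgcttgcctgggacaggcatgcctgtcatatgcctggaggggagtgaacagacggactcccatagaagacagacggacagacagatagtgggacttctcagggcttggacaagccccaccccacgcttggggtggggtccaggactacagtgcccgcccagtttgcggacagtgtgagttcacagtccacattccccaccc

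Both strands were searched for 4 motifs in the same 250-base window of every promoter entry. The E-box of SLC7A5 began 130 bases before the start and that of SLC38A5 began 206 bases before it, and the element of SLC7A1 began 85 bases before its start. The E-box was in 3 of the 15 windows (SLC7A5, SLC38A5 and 1 start of SLC1A5), against 6.34% of 35116 promoter windows. The antioxidant response element was in 4 of the 15 (SLC7A1, SLC7A6, 1 start of SLC3A2 and 1 of SLC1A5), against 10.9%. The RUNX motif, spelled TGTGGT or TGCGGT, was in 2 (1 start each of SLC38A1 and SLC3A2), against 16.3%. The composite element for C/EBP and ATF proteins, spelled TGATGNAA, was in 1 (a start of SLC1A5), against 3.14%. No 2 of these matches in the 15 windows overlapped. A match is a description of letters and not a measured binding site.

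In untreated cells the transporters spanned a wide range of levels. SLC1A5 was the highest at 111 ± 5.51 FPKM, followed by SLC7A5 at 98.3 ± 4.87, SLC3A2 at 71.5 ± 5.72 and SLC38A2 at 66.3 ± 4.65. SLC38A5 stood at 34.8 ± 0.933, SLC7A1 at 25.7 ± 1.09, SLC1A4 at 24.3 ± 1.57, SLC7A6 at 18.2 ± 1.68 and SLC38A1 at 11.6 ± 0.551 FPKM. SLC7A11 was far below the others at 1.597 ± 0.146 FPKM. The libraries of SLC3A2 and SLC38A2 overlapped, as did those of SLC7A1 and SLC1A4, while all other neighbours in this order were apart. SLC1A5 exceeded 94.3% of the genes tested in the drug libraries, and SLC38A1 exceeded 47.0% of them. SLC7A11 averaged 0.688 FPKM over the drug libraries and 0.758 FPKM over the shRNA libraries, below the mean of 1 FPKM needed to enter the main test, so 9 of the 10 genes were tested.

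The first question was how BET degradation and BET inhibition changed these genes within 4 h. The summed level of the 10 genes was 459, 478 and 452 FPKM in the control libraries, 264, 259 and 255 with OTX015, and 224, 216 and 229 with ARV-825. Most members were lower with both compounds. With ARV-825, 8 of 9 tested members fell and 0 rose, where 38.4% of 10819 tested genes fell and 35.8% rose. With OTX015, 8 fell and 1 rose, where 33.5% of tested genes fell and 36.1% rose. In either direction 74.2% of all genes were called with ARV-825 and 69.6% with OTX015. The libraries of drug and control did not overlap for 8 members with ARV-825 (76.2% of all tested genes) and for 9 with OTX015 (75.3%). The log2 change, on the log2(FPKM + 1) scale, had a median of -0.97 over the 9 members with ARV-825, against -0.0080 over all tested genes. With OTX015 the medians were -1.01 and 0.03. Values are scaled within each library, so rises, falls and these medians are relative to the other genes. A change in total RNA per cell was not measured. A fall of at least 2-fold on this scale was called for 4 members with ARV-825 (8.16% of all tested genes) and for 5 with OTX015 (4.96%). Between them, 7 of the 9 members were called lower with both compounds (26.4% of all tested genes), in comparisons that share the control libraries. Calls are at adjusted p = 0.05 by limma. The plot of levels by library shows the separation of the groups.

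**Figure D1:**
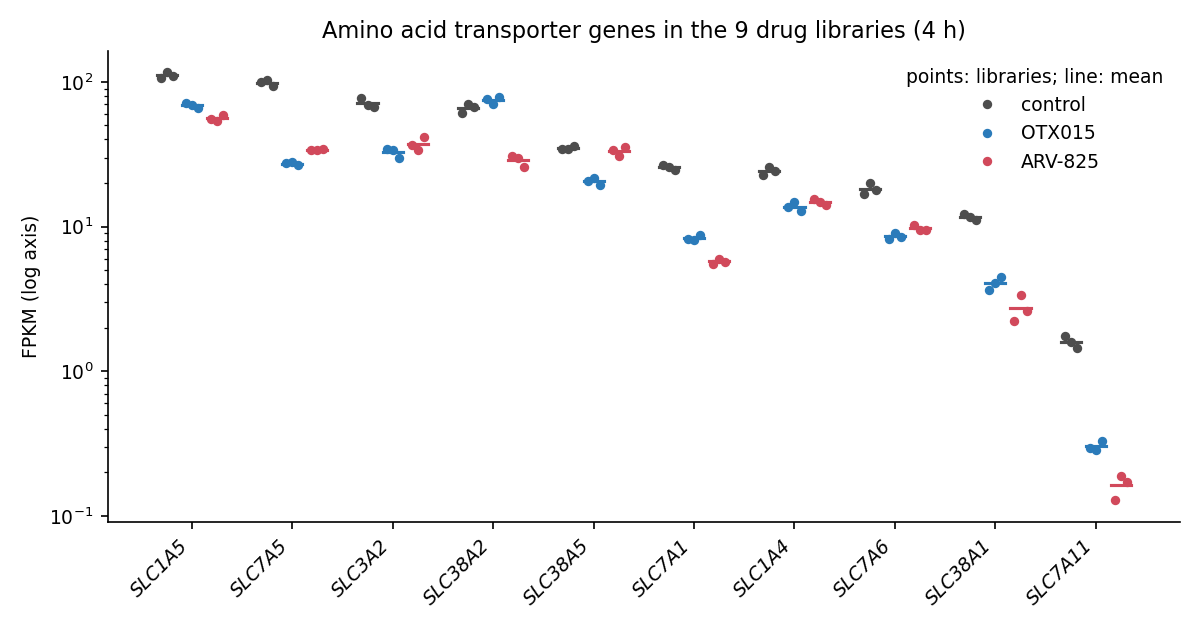
FPKM on a log axis of the 10 transporter genes in each of the 9 drug libraries, with points for libraries and lines for group means, ordered by control level. All 3 control points lie above both drug groups for 8 genes, whereas SLC38A2 is lower with ARV-825 alone and SLC38A5 is lower with OTX015 alone.

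The heavy chain SLC3A2 and its light chains SLC7A5 and SLC7A6 fell with both compounds, SLC7A5 by the most. SLC7A5, the leucine carrier, read 99.5, 102 and 93.0 FPKM in control, 27.5, 27.8 and 26.5 with OTX015, and 33.9, 33.9 and 34.4 with ARV-825. The first 2 ARV-825 values are exactly equal, as can occur after quantile normalization. The 3 groups did not overlap, and the lowest were the OTX015 libraries. The log2 change of SLC7A5 was -1.81 ± 0.044 (SE) with OTX015 (adjusted p = 3.66e-10). With ARV-825 it was -1.50 ± 0.044 (adjusted p = 9.44e-10). SLC3A2, the shared heavy chain, read 78.0, 69.3 and 67.2 FPKM in control, 34.2, 33.8 and 30.0 with OTX015, and 36.6, 33.9 and 41.5 with ARV-825. Both drug groups lay below control and overlapped each other. Its log2 changes were -1.11 ± 0.082 with OTX015 (adjusted p = 6.67e-07) and -0.92 ± 0.082 with ARV-825 (adjusted p = 1.86e-06).

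SLC7A6, the arginine and glutamine exchanger, read 16.8, 20.1 and 17.8 FPKM in control, 8.16, 9.03 and 8.46 with OTX015, and 10.3, 9.48 and 9.46 with ARV-825. Each drug group was below control in 3 of 3 libraries. The log2 changes were -1.01 ± 0.072 (adjusted p = 5.36e-07) and -0.84 ± 0.072 (adjusted p = 1.48e-06). In GENCODE release 29, 44.4% of the exonic bases of SLC7A6 lie on the opposite strand of SLC7A6OS, and the counting is not stated to use strand, so reads in that stretch cannot be assigned with certainty. Antisense transcripts likewise share 23.4% of the exonic bases of SLC1A5, 8.97% of SLC7A11 and 5.71% of SLC7A5. SLC7A6OS itself read 10.1 ± 0.299 FPKM in control, 10.7 ± 0.275 with OTX015 and 15.4 ± 2.07 with ARV-825, the last being higher than control (log2 change 0.56, adjusted p = 9.70e-05).

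SLC7A11, the cystine carrier, read 1.75, 1.59 and 1.45 FPKM in control, 0.295, 0.286 and 0.327 with OTX015, and 0.128, 0.190 and 0.172 with ARV-825. The 3 groups did not overlap. Mean FPKM was 5.28-fold lower with OTX015 and 9.76-fold lower with ARV-825, from a level near 1 FPKM at which the number of reads is unknown. With no filter on low values, limma gave log2 changes of -0.99 ± 0.044 (adjusted p = 1.16e-06) and -1.16 ± 0.044 (adjusted p = 3.92e-07), which understate the change of a gene this low. The difference between the compounds was -0.16 ± 0.044 in that fit (adjusted p = 0.0201).

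The balance between light and heavy chain moved as well. SLC7A5 stood at 1.28, 1.48 and 1.38 FPKM per FPKM of SLC3A2 in control, at 0.802, 0.821 and 0.883 with OTX015, and at 0.927, 1.00 and 0.829 with ARV-825. All 6 drug libraries were below all 3 control libraries. Of the summed level of the 6 light chains that pair with SLC3A2 (SLC7A5, SLC7A6, SLC7A7, SLC7A8, SLC7A10 and SLC7A11), SLC7A5 made up 82.1% ± 1.15 in control, 73.6% ± 0.869 with OTX015 and 75.0% ± 0.804 with ARV-825. SLC7A6 made up 15.2% ± 0.974, 23.1% ± 0.826 and 21.4% ± 0.906, a higher share at a lower level. These ratios are given as descriptions with no test.

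The cationic carrier SLC7A1 had the largest fall of the tested members with ARV-825. It read 26.6, 25.9 and 24.5 FPKM in control, 8.17, 8.14 and 8.71 with OTX015, and 5.54, 6.01 and 5.67 with ARV-825. The groups were fully apart, with ARV-825 lowest. The log2 changes were -1.51 ± 0.058 with OTX015 (adjusted p = 6.37e-09) and -1.99 ± 0.058 with ARV-825 (adjusted p = 9.44e-10), or 3.08-fold and 4.48-fold lower mean FPKM. Where SLC7A1 had been level with SLC1A4 in control, it lay below it in every drug library.

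The 2 exchangers of the SLC1 family fell less. SLC1A5, the main glutamine exchanger of many tumour cells, read 106, 117 and 110 FPKM in control, 72.0, 68.8 and 65.8 with OTX015, and 55.7, 54.0 and 58.9 with ARV-825. The 3 groups were apart in the order control, OTX015, ARV-825. Its log2 changes were -0.68 ± 0.052 (adjusted p = 8.76e-07) and -0.97 ± 0.052 (adjusted p = 4.15e-08). SLC1A4 read 22.8, 26.0 and 24.1 FPKM in control, 13.6, 14.7 and 12.8 with OTX015, and 15.6, 14.8 and 14.1 with ARV-825. The drug groups overlapped each other and both lay below control. Its log2 changes were -0.78 ± 0.066 (adjusted p = 1.85e-06) and -0.67 ± 0.066 (adjusted p = 4.18e-06).

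The 3 SLC38 genes followed 3 different patterns. SLC38A1 fell with both compounds: it read 12.2, 11.6 and 11.1 FPKM in control, 3.62, 4.05 and 4.49 with OTX015, and 2.21, 3.38 and 2.62 with ARV-825. Its log2 changes were -1.32 ± 0.111 (adjusted p = 1.74e-06) and -1.77 ± 0.111 (adjusted p = 1.31e-07). SLC38A2, the carrier that amino acid starvation is known to induce, fell with ARV-825 and was slightly higher with OTX015. It read 61.3, 70.4 and 67.3 FPKM in control, 75.9, 70.7 and 79.0 with OTX015, and 30.6, 29.8 and 26.0 with ARV-825. The lowest OTX015 library lay just above the highest control library, while every ARV-825 library lay far below both groups. With ARV-825 the log2 change of SLC38A2 was -1.18 ± 0.071 (adjusted p = 9.87e-08). With OTX015 it was 0.18 ± 0.071 (95% interval 0.02 to 0.34, adjusted p = 0.0424), a call that 8 of 16 alternative settings lost, among them leaving out control replicate 1 (0.12, adjusted p = 0.159).

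SLC38A5, a carrier of glutamine, histidine and glycine, showed the reverse. It read 34.3, 34.3 and 35.9 FPKM in control, 20.7, 21.5 and 19.4 with OTX015, and 33.8, 30.6 and 35.7 with ARV-825. The ARV-825 and control libraries overlapped, and the OTX015 libraries lay below both. The log2 change was -0.74 ± 0.061 with OTX015 (adjusted p = 1.53e-06). With ARV-825 it was -0.06 ± 0.061 (95% interval -0.20 to 0.07, adjusted p = 0.367). As a result the make-up of the trio differed by compound. SLC38A2 made up 58.8% ± 1.86 of the summed FPKM of the 3 genes in control, 75.3% ± 1.70 with OTX015 and 44.4% ± 3.41 with ARV-825. SLC38A5 made up 30.9% ± 1.25, 20.6% ± 1.75 and 51.4% ± 3.79. The sum itself was 113 ± 4.45, 99.8 ± 3.27 and 64.9 ± 1.51 FPKM.

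**Figure D2:**
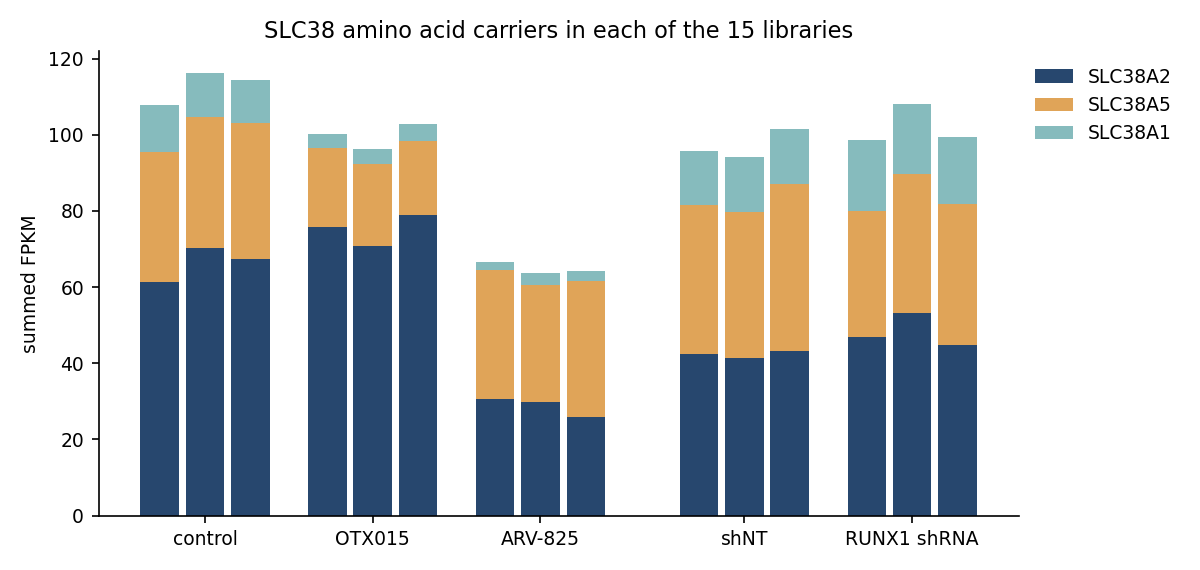
Stacked bars of the FPKM of SLC38A2, SLC38A5 and SLC38A1 in each of the 15 libraries, grouped by condition, with the separately normalized shRNA libraries to the right of the gap. With ARV-825 the bars are shorter and SLC38A5 is the largest segment, whereas with OTX015 SLC38A2 is the largest.

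The second question was whether the degrader and the inhibitor, which share a BET ligand and differ by the linker and cereblon ligand, gave different levels at the same dose and time. This was 1 pair of compounds, tested over all 10819 genes. Of the 9 members, 6 differed (58.1% of all tested genes did), 2 being higher with ARV-825 (24.7%) and 4 lower (33.4%). SLC38A2 was lower with ARV-825 by 1.36 on the log2 scale, where a difference of at least 2-fold in that direction was called for 1.05% of all tested genes (-1.36 ± 0.071, adjusted p = 7.38e-07). SLC7A1 differed by -0.47 ± 0.058 (adjusted p = 7.21e-05), SLC38A1 by -0.44 ± 0.111 (adjusted p = 0.00584) and SLC1A5 by -0.29 ± 0.052 (adjusted p = 0.000789). SLC38A5 was higher with ARV-825 by 0.67 ± 0.061 (adjusted p = 1.01e-05) and SLC7A5 by 0.31 ± 0.044 (adjusted p = 0.000162). The libraries of the 2 compounds did not overlap for these 6 and for SLC7A6 (62% of all tested genes). SLC38A2 was the 1 member called in opposite directions against control and between the compounds, as were 3.81% of all tested genes, and 2.35% had its directions, lower with ARV-825 and higher with OTX015.

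No difference was called for SLC1A4 (0.11, 95% interval -0.04 to 0.26, adjusted p = 0.179), SLC3A2 (0.19, 0.0042 to 0.37, adjusted p = 0.0739) or SLC7A6 (0.17, 0.0083 to 0.33, adjusted p = 0.0672). The last 2 passed after median-ratio rescaling of the libraries (adjusted p = 0.0285 and 0.0244), SLC3A2 also without ARV-825 replicate 2 (adjusted p = 0.0258) and SLC7A6 without control replicate 2 (adjusted p = 0.0471). In the same libraries MYC stood at 288 ± 6.99 FPKM in control, 113 ± 1.87 with OTX015 and 23.0 ± 1.47 with ARV-825. HEXIM1, a common marker of BET inhibition, stood at 11.3 ± 0.879, 92.0 ± 1.77 and 49.6 ± 2.20 FPKM. SLC7A1, SLC38A1, SLC1A5 and SLC7A11 had the order of MYC, with OTX015 below control and ARV-825 lowest, and the other 6 members did not. RUNX1 stood at 61.4 ± 2.09, 55.2 ± 5.25 and 36.2 ± 2.39 FPKM. The plot of log2 changes with their intervals shows these differences.

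**Figure D3:**
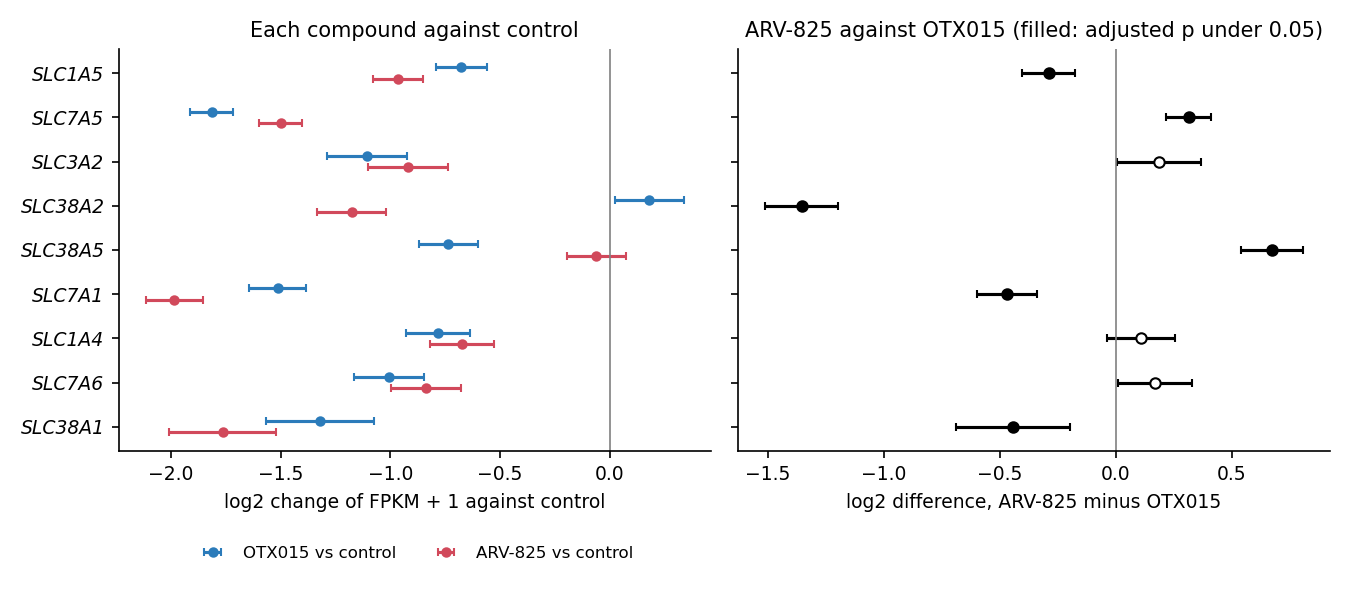
Left, log2 change against control of the 9 tested members with each compound, and right, the log2 difference of ARV-825 minus OTX015, all with 95% intervals of limma. SLC38A2 at -1.36 and SLC38A5 at 0.67 lie farthest from 0 on the right, and open points mark the 3 members not called.

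The third question was how the transporters responded to a RUNX1 shRNA over 72 h. The changes were small, and of 9 tested members 4 rose and 1 fell, where 13.5% of 10925 tested genes rose and 13.8% fell, 27.4% in all. The median log2 change of the members was 0.12, against -0.0091 over all tested genes. The shNT and RUNX1 shRNA libraries did not overlap for 8 of the 9 members (44.1% of all tested genes). Without RUNX1 shRNA replicate 3, 8 members were called, 6 up and 2 down. The summed level of the 10 genes was 344, 348 and 352 FPKM with shNT and 363, 363 and 360 FPKM with RUNX1 shRNA.

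Among SLC3A2 and its partners, SLC3A2 read 46.4, 45.3 and 44.9 FPKM with shNT and 58.6, 51.6 and 55.6 with RUNX1 shRNA. The groups were apart, and the log2 change was 0.27 ± 0.046 (adjusted p = 0.00332). SLC7A5 read 62.4, 64.1 and 63.2 FPKM with shNT and 71.5, 70.3 and 71.6 with RUNX1 shRNA (0.17 ± 0.027, adjusted p = 0.00252). Both rises were of 12.5% to 21.4% in mean FPKM. SLC7A6 read 20.0, 20.0 and 20.2 against 23.1, 21.8 and 21.0 FPKM (0.12 ± 0.043, adjusted p = 0.0630), and it passed without RUNX1 shRNA replicate 3 (0.15, adjusted p = 0.0364).

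SLC7A11 had the largest relative difference of the 10 genes, at the lowest level. It read 0.486, 0.492 and 0.492 FPKM with shNT and 1.03, 0.989 and 1.06 with RUNX1 shRNA, a 2.09-fold higher mean. The groups were fully apart. With no filter on low values, limma gave a log2 change of 0.44 ± 0.028 (adjusted p = 0.000926), and on the log2(FPKM + 0.1) scale the difference was 0.93. Its level with shNT, a library normalized in another table, was 0.490 FPKM against 1.597 in the untreated control.

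Of the other members, SLC38A1 read 14.4, 14.4 and 14.6 FPKM with shNT and 18.8, 18.4 and 17.6 with RUNX1 shRNA (0.32 ± 0.042, adjusted p = 0.00107). This was the largest log2 change among the 9 tested members. SLC7A1 read 22.8, 23.0 and 22.9 against 25.5, 25.3 and 24.3 FPKM (0.12 ± 0.036, adjusted p = 0.0388), a call that 7 of 12 alternative settings lost, among them leaving out any shNT library or RUNX1 shRNA replicate 1 or 2 (adjusted p = 0.0803 to 0.110). SLC1A5 fell in every library, from 72.8, 75.2 and 72.7 to 63.1, 63.2 and 63.3 FPKM (-0.22 ± 0.027, adjusted p = 0.000775). It had been the highest of the 10 genes with shNT and came below SLC7A5 with RUNX1 shRNA.

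The last 3 members were not called. SLC1A4 read 23.5, 26.0 and 25.7 against 22.1, 22.04 and 23.5 FPKM, and the groups overlapped at 23.5 (-0.15, 95% interval -0.26 to -0.03, adjusted p = 0.0604). SLC38A2 read 42.5, 41.4 and 43.3 against 46.9, 53.3 and 44.7 FPKM (0.18, 0.05 to 0.32, adjusted p = 0.0530). SLC38A5 read 38.9, 38.3 and 43.7 against 33.0, 36.3 and 37.2 FPKM (-0.18, -0.32 to -0.04, adjusted p = 0.0603). SLC1A4 passed without RUNX1 shRNA replicate 3 (adjusted p = 0.0461) or shNT replicate 1 (0.0315), and SLC38A2 passed without RUNX1 shRNA replicate 3 (0.0212) or at a mean of at least 5 FPKM (0.0437). MYC was lower in the same libraries, at 262 ± 2.92 FPKM with shNT and 211 ± 4.00 with RUNX1 shRNA (log2 change -0.31, adjusted p = 8.12e-05). SLC1A5 was lower with MYC in both experiments, and SLC7A5, SLC3A2 and SLC38A1 were lower with MYC in the drug experiment and higher here. SLC7A1, whose call here was lost under several alternative settings, and SLC7A11, which was outside the main test, had the same pattern as these 3. The part of MYC in these changes was not tested.

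**Figure D4:**
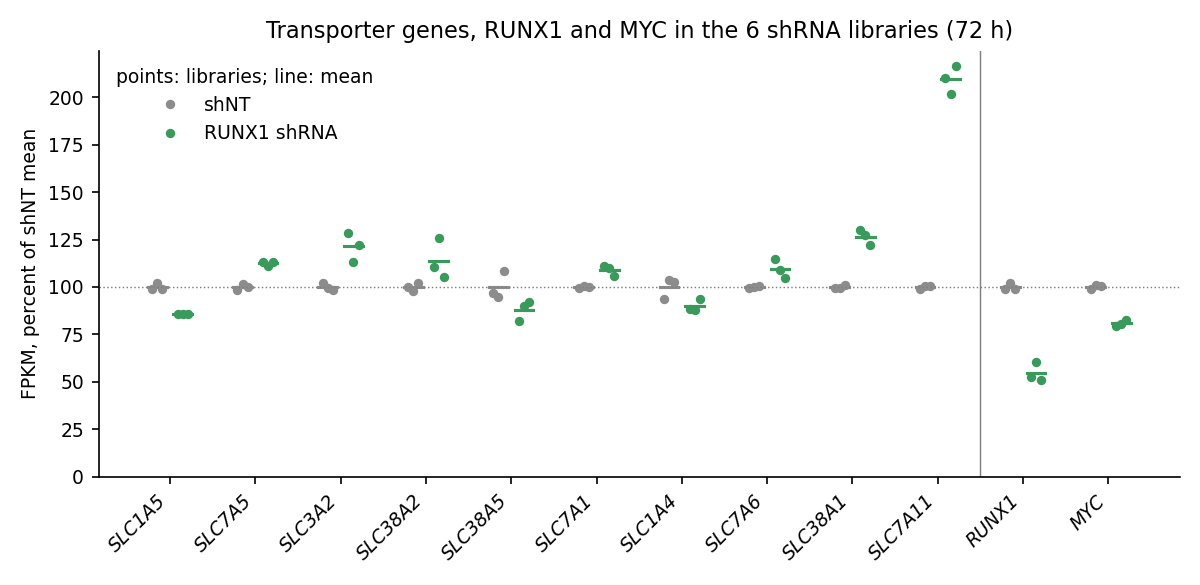
FPKM of the 10 transporter genes, RUNX1 and MYC in the 6 shRNA libraries, as a percent of the shNT mean of each gene, with points for libraries and lines for group means. SLC7A11 is the member farthest from 100 percent, SLC1A5 lies below it, and RUNX1 and MYC are both lower.

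The genes whose pattern was most like that of a member were sought for the 3 members with the largest log2 changes, by the Euclidean distance over the 3 log2 changes with ARV-825, OTX015 and RUNX1 shRNA among 10573 genes tested in both tables. Nearest to SLC7A1 were the succinate receptor SUCNR1 (distance 0.080, log2 changes -2.01, -1.59 and 0.12) and the signalling adaptor DOK3 (0.087). Nearest to SLC7A5 were the focal adhesion gene TNS1 (0.12) and the potassium channel KCNN4 (0.15). Nearest to SLC38A1 were LHFPL2 (0.026, with -1.78, -1.35 and 0.31) and the apolipoprotein L gene APOL6 (0.10). None of these is another amino acid transporter. The members were left out of the search, so none of them could be named, and likeness between members was not examined.

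The counts of the related lists are to be read against all tested genes, of which 35.8% rose and 38.4% fell with ARV-825, 36.1% rose and 33.5% fell with OTX015, and 13.5% rose and 13.8% fell with RUNX1 shRNA. Other amino acid transporters had medians nearer to 0 than the members with both compounds. Of 43 listed, 16 were tested in the drug libraries. With ARV-825, 1 rose and 10 fell (median -0.33), and with OTX015, 1 rose and 9 fell (median -0.27). SLC43A1 (LAT3), a leucine carrier that needs no heavy chain, fell from 23.6 ± 0.330 FPKM in control to 9.74 ± 1.48 with OTX015 (-1.21, adjusted p = 7.90e-06). It also fell with ARV-825 (-0.72, adjusted p = 0.000331). SLC7A2 (CAT2), the relative of SLC7A1, fell from 20.7 ± 1.87 to 10.5 ± 0.919 FPKM with OTX015 (-0.91, adjusted p = 2.32e-06) and was higher with ARV-825, at 16.5 ± 1.03 FPKM, than with OTX015 (0.61, adjusted p = 0.000102). The lysosomal arginine sensor SLC38A9 (-0.92) and SLC38A7 (-1.05) fell with ARV-825, and the taurine carrier SLC6A6 rose (0.47). With OTX015, SLC38A9 (-0.35) and SLC38A7 (-0.31) also fell, by less, and SLC6A6 was not called (0.13, adjusted p = 0.0702). With RUNX1 shRNA, 4 of 17 tested rose and 1 fell, near the 27.4% of all tested genes that were called in that comparison. The peptide and histidine carrier SLC15A3 rose from 2.41 ± 0.452 to 7.09 ± 1.74 FPKM (1.23, adjusted p = 0.000985), SLC43A2 (LAT4) rose by 0.55, and SLC16A10 changed by -0.27. Of 11 mitochondrial amino acid carriers, 9 were tested, with 2 up and 5 down for each compound, led by SLC25A44, the branched-chain amino acid carrier (0.87 with ARV-825 and 0.61 with OTX015), and by the aspartate and glutamate carrier SLC25A12 (-1.05 with ARV-825). SLC25A12 also fell with OTX015 (-0.68).

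ATF4 response genes, such as enzymes of asparagine and serine synthesis, moved in both directions. Of 24 tested, 5 rose and 15 fell with ARV-825 (median -0.35), and 8 rose and 14 fell with OTX015 (median -0.27). CHAC1, a glutathione-degrading enzyme, read 5.92 ± 1.05 FPKM in control, 0.555 ± 0.496 with OTX015 and 0.103 ± 0.0444 with ARV-825, and STC2, a secreted glycoprotein, fell from 10.4 ± 0.191 to 1.67 ± 0.477 and 0.233 ± 0.0473 FPKM. With shNT, normalized separately, CHAC1 stood at only 0.161 ± 0.0752 FPKM and STC2 at 6.15 ± 0.696. PPP1R15A rose with both (1.19 with ARV-825 and 1.597 with OTX015). With RUNX1 shRNA 7 of 23 tested rose and 2 fell, led by asparagine synthetase, ASNS, from 15.4 ± 0.633 to 25.75 ± 0.550 FPKM (0.71, adjusted p = 2.01e-05). ATF4 itself, singled out after its values were seen, fell with ARV-825 (-0.61, adjusted p = 1.55e-06) and OTX015 (-0.35, adjusted p = 0.000149) and rose with RUNX1 shRNA (0.24, adjusted p = 0.000238).

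In each list of genes that sense or use amino acids, some genes rose and some fell. With ARV-825, rises outnumbered falls in the glutathione and NRF2 list and in the enzyme list. Of 38 amino acid sensing and mTORC1 genes, 14 rose and 15 fell with ARV-825 and 15 rose and 13 fell with OTX015. The leucine sensor family gene SESN3 rose from 3.57 ± 0.0590 to 13.6 ± 1.30 FPKM with ARV-825 and 14.6 ± 2.24 with OTX015. SESN2 rose by 1.14 with ARV-825 and 0.52 with OTX015, and the mTOR-binding inhibitor DEPTOR changed by -1.22 and -1.11. Of 18 tested glutathione and NRF2 response genes, 11 rose and 5 fell with ARV-825 (median 0.30), and 7 rose and 5 fell with OTX015 (median 0.04). KEAP1, the NRF2 inhibitor, fell from 40.5 ± 1.84 to 15.5 ± 0.687 FPKM with ARV-825 (-1.33, adjusted p = 3.87e-08) and by less with OTX015 (-0.54, adjusted p = 5.30e-05). Heme oxygenase HMOX1 rose by 0.76 with ARV-825 and 0.85 with OTX015. Of 24 tested enzymes of glutamine, arginine and branched-chain amino acids, 12 rose and 6 fell with ARV-825 and 9 rose and 10 fell with OTX015. Glutamine synthetase, GLUL, fell from 782 ± 32.4 to 353 ± 16.2 FPKM with ARV-825 (-1.14, adjusted p = 1.23e-08) and from 937 ± 18.3 to 579 ± 20.4 FPKM with RUNX1 shRNA (-0.69, adjusted p = 3.98e-06). GLUL also fell with OTX015 (-0.32, adjusted p = 0.000206). Ornithine aminotransferase, OAT, rose with ARV-825 (0.90) and OTX015 (0.74), and the branched-chain aminotransferase BCAT1 fell with OTX015 (-0.94) and rose with RUNX1 shRNA (0.42). In the shRNA libraries these 3 lists had 6 up and 2 down of 37 tested, 1 up and 3 down of 18, and 5 up and 3 down of 24.

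**Figure D5:**
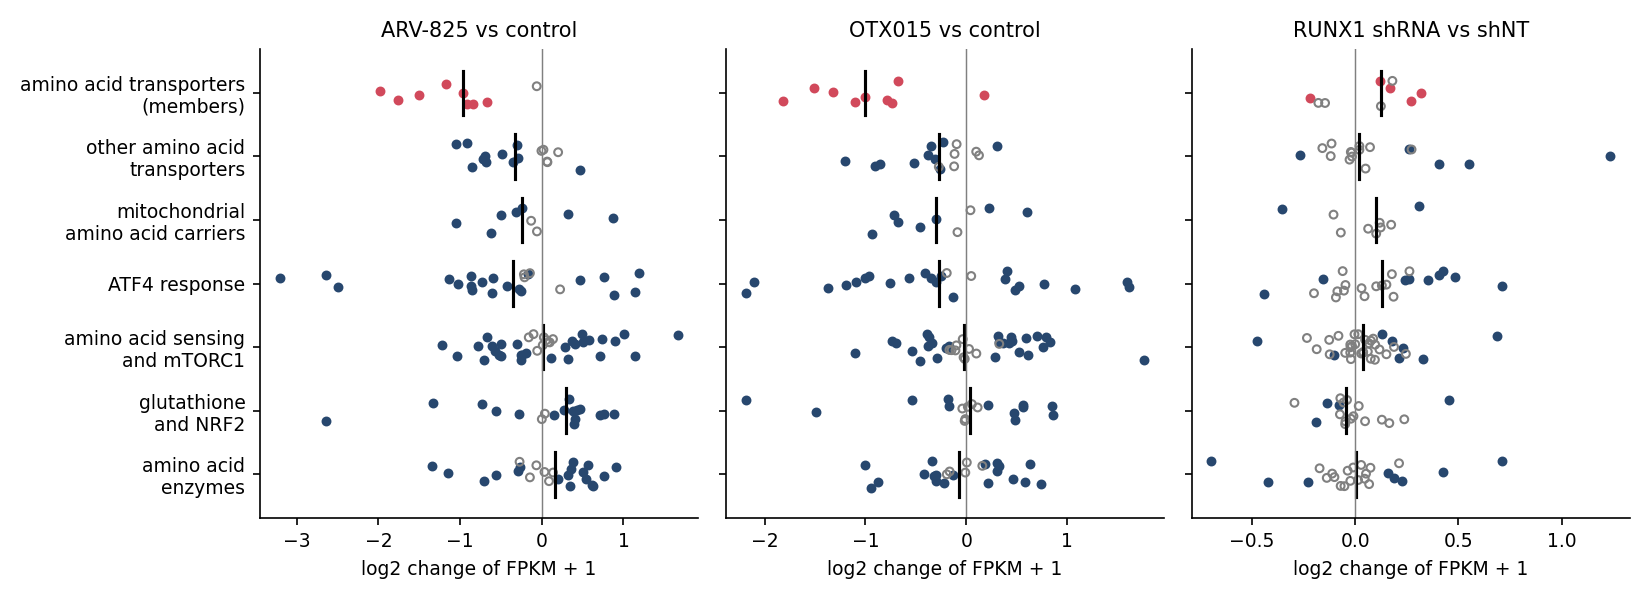
Log2 change of each tested gene of the transporter members and of 6 related gene lists in 3 comparisons, with filled points called at adjusted p = 0.05, open points not called and a bar at each list's median. The members' medians of -0.97 with ARV-825 and -1.01 with OTX015 lie farther from 0 than those of the other lists.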

How the data were processed

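Poly(A) selection, strand and gene annotation are not given in the sources used here. TopHat2 2.0, Cufflinks 2.0 and hg19 are listed per the submitters' processing notes. Values in both tables deposited by the authors were read as FPKM because Cufflinks reports FPKM. The table names carry an abbreviation read as quantile normalization. Done over the listed genes, that step would give every library of a table the same median. Median FPKM was 1.80 to 1.92 with ARV-825, 2.06 to 2.10 with OTX015 and 2.15 to 2.20 in control. It was 2.52 to 2.56 with RUNX1 shRNA and 2.57 to 2.58 with shNT. The gene set and method of the normalization are therefore unknown, and the libraries were not evened over the listed genes. No whole reads can be recovered from such values, so depth and counting error are unknown.

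Groups came from the treatment labels. Replicates are called biologic triplicates with no batch named, so p-values reflect only how far these libraries differ, which may be technical. In both tables, 16 pseudoautosomal Y copies were left out. Genes were tested where they averaged 1 FPKM or more, as log2(FPKM + 1) with limma 3.58.1 in R 4.3.3 (lmFit, eBayes with trend, two-sided, Benjamini-Hochberg over all tested genes, adjusted p = 0.05). The 9 drug libraries shared 1 fit and the 6 shRNA libraries another. The code was tested on simulated data. Members and lists were chosen with earlier results of these data known. Beside the members, at most the 2 largest called rises and falls per list and comparison were named. Alternatives were other pseudocounts, filters, rescaling, eBayes without trend, a replicate block, fits of 2 groups, and leaving out each library.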

Additional observations from a re-analysis of the deposited data

Results flagged for a closer look

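SLC38A2 was singled out because its changes against the same control had opposite signs with the 2 compounds and the difference between them was called. It changed by -1.18 with ARV-825 and by 0.18 with OTX015, and the difference of ARV-825 minus OTX015 was -1.356 on the log2 scale (adjusted p = 7.38e-07, lower in 3 of 3 ARV-825 libraries than in any OTX015 library). Of all 10819 tested genes, 2.35% were called lower with ARV-825, higher with OTX015 and different between the compounds. The call of the difference was kept under all 16 alternative settings (adjusted p = 4.84e-07 to 2.29e-05), while the call of the rise with OTX015 was lost under 8 of them.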

How the results depend on the processing

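Over 36 member results (9 tested members in 4 comparisons), 515 of 540 alternative values kept their direction and their side of the threshold, 15 lost a call, 10 gained one and 0 changed sign. The number of members called stayed within 8 to 9 with ARV-825 against control, 8 to 9 with OTX015 against control and 6 to 8 between the compounds. The 9 with ARV-825 came from the fit with no filter, in which SLC7A11 was tested as well, so that 10 members were tested. SLC38A5 was called with ARV-825 in no setting (adjusted p = 0.128 to 0.96). With RUNX1 shRNA the number called was 5, and leaving out single libraries gave 4 to 8. The 8 came without RUNX1 shRNA replicate 3, and the cause was not tested. The lost calls were SLC38A2 with OTX015 (adjusted p = 0.0194 to 0.159 over 16 settings) and SLC7A1 with RUNX1 shRNA (0.0307 to 0.110 over 12 settings). Same-numbered libraries did not deviate together (correlations from -0.32 to 0.061 in the drug libraries and -0.0030 to 0.061 in the shRNA libraries), so no pairing by number was detected. With 3 libraries per group, this check cannot show that a shared preparation or batch was absent. Differently numbered drug libraries reached from -0.22 to 0.41, the highest being ARV-825 replicate 2 with OTX015 replicate 3. With a replicate block 8, 8, 6 and 5 members were called in the 4 comparisons, against 8, 9, 6 and 5 without it. It ended the calls of SLC38A2 with OTX015 (adjusted p = 0.0739) and of SLC7A1 with RUNX1 shRNA (0.0749), and SLC38A5 with RUNX1 shRNA passed (0.0306). The block lowered the calls over all genes from 8025 to 7771 with ARV-825 and from 2988 to 2585 with RUNX1 shRNA. Median-ratio rescaling evened the directions over all genes, with 3149 higher and 3204 lower between the compounds (2672 and 3610 as reported) and 3677 higher and 3827 lower with OTX015 against control (3901 and 3627). Depth is unknown, so how far counting error limits SLC7A11, at 0.128 to 1.75 FPKM, cannot be given.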
